A study of Mus musculus with 27 samples.

Results

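The Kruppel-like factor (KLF) genes were followed in bulk RNA sequencing of hepatic stellate cells (HSCs), the vitamin A-storing pericytes of the liver sinusoid that turn into matrix-producing myofibroblasts after injury. The 10 genes were chosen by name, Klf2, Klf3, Klf4, Klf5, Klf6, Klf7, Klf9, Klf10, Klf13 and Klf15, out of 53379 genes in the count table, and all 10 were among the 18758 genes that passed the filter on low counts. HSCs came from male Balb/c mice and were sorted on ultraviolet positivity, which selects cells by their retinoid, and lysed without culture. The 7 groups held 27 libraries. Healthy mice of 10 to 12 weeks received no injection and gave 4 libraries. Acute groups received 1 intraperitoneal injection of carbon tetrachloride (CCl4), a hepatocyte toxin, at 0.5 µL per g of body weight in mineral oil at 10 to 12 weeks of age, with 3 libraries of cells taken 24 h later, 4 taken 72 h later and 4 taken 7 d later. Chronic groups, started at 8 to 10 weeks of age, received the same dose as 8 injections over 4 weeks, and the last injection preceded cell collection by 24 h, 72 h or 14 d, with 4 libraries for each. Healthy mice were not given the oil, so that toxin and vehicle cannot be told apart, and courses also differed in age at the start. Each library stood for an individual experiment according to the methods of the study, which do not say how many mice gave the cells of a library.

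KLFs are transcription factors that bind GC-rich and CACCC elements through C2H2 zinc fingers, which they share with the Sp factors. They are commonly grouped by the partners bound by the rest of the protein. Klf2, Klf4, Klf5, Klf6 and Klf7 have activation domains and recruit acetyltransferases, Klf3 recruits the repressor CtBP, Klf9, Klf10 and Klf13 recruit the Sin3 repressor complex, and Klf15 stands outside these groups. In the liver Klf2 and Klf4 are best known as flow-induced factors of sinusoidal endothelium, Klf6 as a gene induced early in HSC activation, Klf10 as an early target of transforming growth factor beta, and Klf9 and Klf15 as targets of the glucocorticoid receptor that oscillate with the circadian clock.

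The promoters of 4 members are shown because Klf2 and Klf4 had the most alike levels of any pair of members and because Klf9 and Klf15 differed between the courses. The sequences come from RefSeq on build GRCm38.p6, run 5′ to 3′ on the transcribed strand, and end at the base before the annotated start. Capitals mark the elements that KLFs themselves bind, the GC box GGGCGG and the CACCC box CACCC, on either strand. Klf2 lay at chr8:72318812-72319032 (plus strand, 221 bases, stopped where the GENCODE gene begins), Klf4 at chr4:55532476-55532725 (minus strand), Klf9 at chr19:23140976-23141225 (plus strand) and Klf15 at chr6:90462326-90462575 (plus strand).
Klf2: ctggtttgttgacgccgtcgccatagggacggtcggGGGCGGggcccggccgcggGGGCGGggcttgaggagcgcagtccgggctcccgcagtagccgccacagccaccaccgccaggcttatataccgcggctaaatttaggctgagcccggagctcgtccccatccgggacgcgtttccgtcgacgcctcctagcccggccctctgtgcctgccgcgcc
Klf4: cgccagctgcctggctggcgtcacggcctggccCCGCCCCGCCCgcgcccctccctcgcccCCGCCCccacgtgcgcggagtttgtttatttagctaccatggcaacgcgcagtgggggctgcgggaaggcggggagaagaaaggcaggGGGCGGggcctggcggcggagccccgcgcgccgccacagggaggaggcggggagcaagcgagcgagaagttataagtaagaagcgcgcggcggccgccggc
Klf9: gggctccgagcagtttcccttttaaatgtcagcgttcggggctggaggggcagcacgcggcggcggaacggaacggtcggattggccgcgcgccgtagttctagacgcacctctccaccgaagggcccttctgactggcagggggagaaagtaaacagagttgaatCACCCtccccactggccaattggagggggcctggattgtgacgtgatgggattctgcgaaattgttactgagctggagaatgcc
Klf15: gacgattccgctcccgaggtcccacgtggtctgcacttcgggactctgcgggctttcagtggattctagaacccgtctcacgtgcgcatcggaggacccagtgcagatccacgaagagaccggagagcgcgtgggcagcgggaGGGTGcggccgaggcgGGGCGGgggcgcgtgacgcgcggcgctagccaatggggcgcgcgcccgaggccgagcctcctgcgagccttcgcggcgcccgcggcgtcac

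Over windows of 250 bases before the RefSeq start, searched on both strands, 8 members had an entry and Klf5 and Klf10 had none. All 250 bases of the Klf7 window lay inside the GENCODE gene, as did 133 of Klf3, 29 of Klf2 and 7 of Klf6. A GC box was found in 7 of the 8, all but Klf9, and in 32.7% of 32851 RefSeq promoters. A CACCC box was found in 6 of the 8 and in 52% of all promoters. That of Klf2, at base -19, lay in the part that is not printed. The GC content of the 8 windows ran from 59.2% in Klf7 to 78.4% in Klf3, above the median of 52.4% over all promoters. The E-box CACGTG, the element bound by the clock factors CLOCK and BMAL1, was found at 2 positions in Klf15 and at 1 position in each of Klf4 and Klf6, and in 6.02% of all promoters. The core TGACG of the cAMP response element was found in 5 of the 8, Klf2, Klf4, Klf9, Klf13 and Klf15, and in 17.8% of all promoters. The letters of the MEF2 core, TATTTATA, and of the AP-1 site, TGAGTCA, were in none of the 8 windows and in 1.56% and 4.46% of all promoters. Only these exact letters were searched, so other forms of either site were not counted and may be present. GC boxes next to each other overlapped in Klf4, and no CACCC match overlapped a GC box in the printed windows.

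Total counts ran from 6.31 M to 13.1 M per library. A set of 8 libraries, all of chronic 14 d and replicates 1 and 2 of chronic 24 h and of chronic 72 h, had at most 7.58 M, and the other 19 had at least 10.8 M. Since no healthy library was as shallow as those of chronic 14 d, depth and group cannot be told apart in that comparison. All 12 HSC markers were detected in every group. In CPM, the count of a gene scaled to a fixed library total, their summed level ran from 26911 to 46784 CPM in healthy and from 14986 to 17949 CPM in chronic 24 h libraries. Dcn and Ecm1 made up most of that sum, with means of 17616 and 9208 CPM in healthy and 8395 and 2111 CPM in chronic 24 h libraries. Pdgfrb and Des had higher means at chronic 24 h (2150 and 711 CPM) than in healthy cells (1052 and 537 CPM). The means of the remaining markers were lower at chronic 24 h. Because the RNA is bulk RNA, fewer cells of a type and less RNA of its markers per cell cannot be told apart. Counts of Klf3 may include reads of the antisense gene Gm20033, which shares 404 exonic bases and had 3733 counts against 34751 for Klf3, and strand use in counting was not stated. Klf7 shares 3196 exonic bases with the antisense Gm26649, which had 0 counts. Klf13 shares a stretch of 281 bases at 91.5% identity with Tanc2, and Klf4 and Klf5 have near-identical stretches in Gm48640 (74 counts) and Gm6007 (0 counts).

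Klf2 was by far the most abundant member and Klf5 the least. Per kb of exon, healthy cells had a mean level of 662 CPM per kb for Klf2. Klf9 (98.6), Klf6 (98.0) and Klf4 (79.3) CPM per kb came next. Klf13 (36.2), Klf10 (32.0), Klf15 (28.01), Klf7 (20.0) and Klf3 (10.8) CPM per kb were lower, and Klf5 was at 0.127 CPM per kb. The group means of Klf2 were above those of each other member in each of the 7 groups, and those of Klf5 were below them. When the 7 groups were put in order of a member's mean CPM, the libraries of neighbouring groups overlapped in 58 of 60 neighbouring pairs. Neighbours in such an order are close in mean by construction, and the share over all genes was not counted. The exceptions were Klf5, with acute 24 h above healthy, and Klf7, with healthy above chronic 24 h, where the lowest healthy library was at 111.4 CPM and the highest chronic 24 h library at 111.1 CPM.

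**Figure D1:**
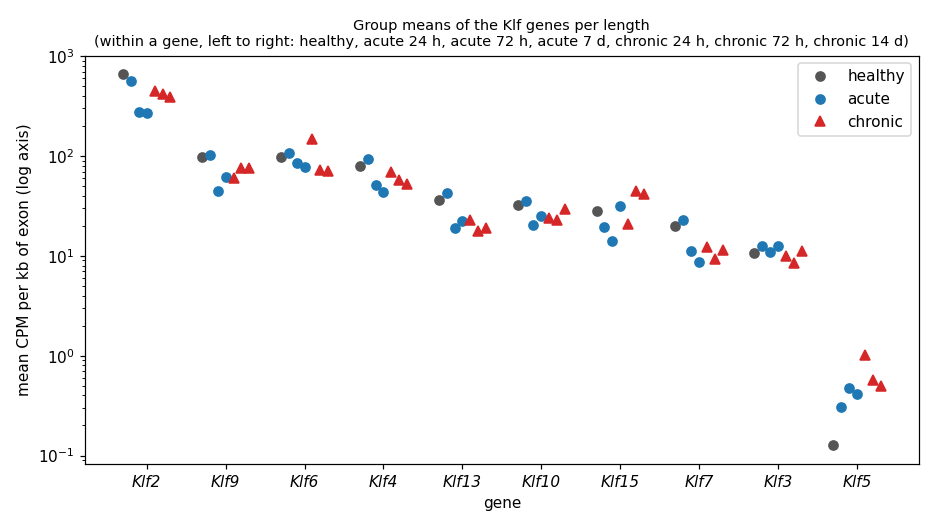
Mean CPM per kb of exon of the 10 Klf genes in the 7 groups, on a log axis, with the genes in order of their healthy mean. Klf2 tops the others in every group (662 CPM per kb in healthy cells), and Klf5 lies lowest (0.127 CPM per kb in healthy cells).

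Levels are given below as CPM per library, with TMM scaling, a trimmed mean of log ratios between libraries, and changes as log2 fold changes with their standard error. A gene was called higher or lower at an adjusted p below 0.05 (edgeR quasi-likelihood test, Benjamini-Hochberg over 18758 genes) and a change above 2-fold. Over all 7 groups 8 of 10 members differed in the edgeR F test (adjusted p below 0.05), all but Klf3 (adjusted p = 0.80) and Klf10 (adjusted p = 0.57). Of all genes tested 56.0% did. The comparisons with healthy cells share the 4 healthy libraries, so that their values are not independent of each other.

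**Figure D2:**
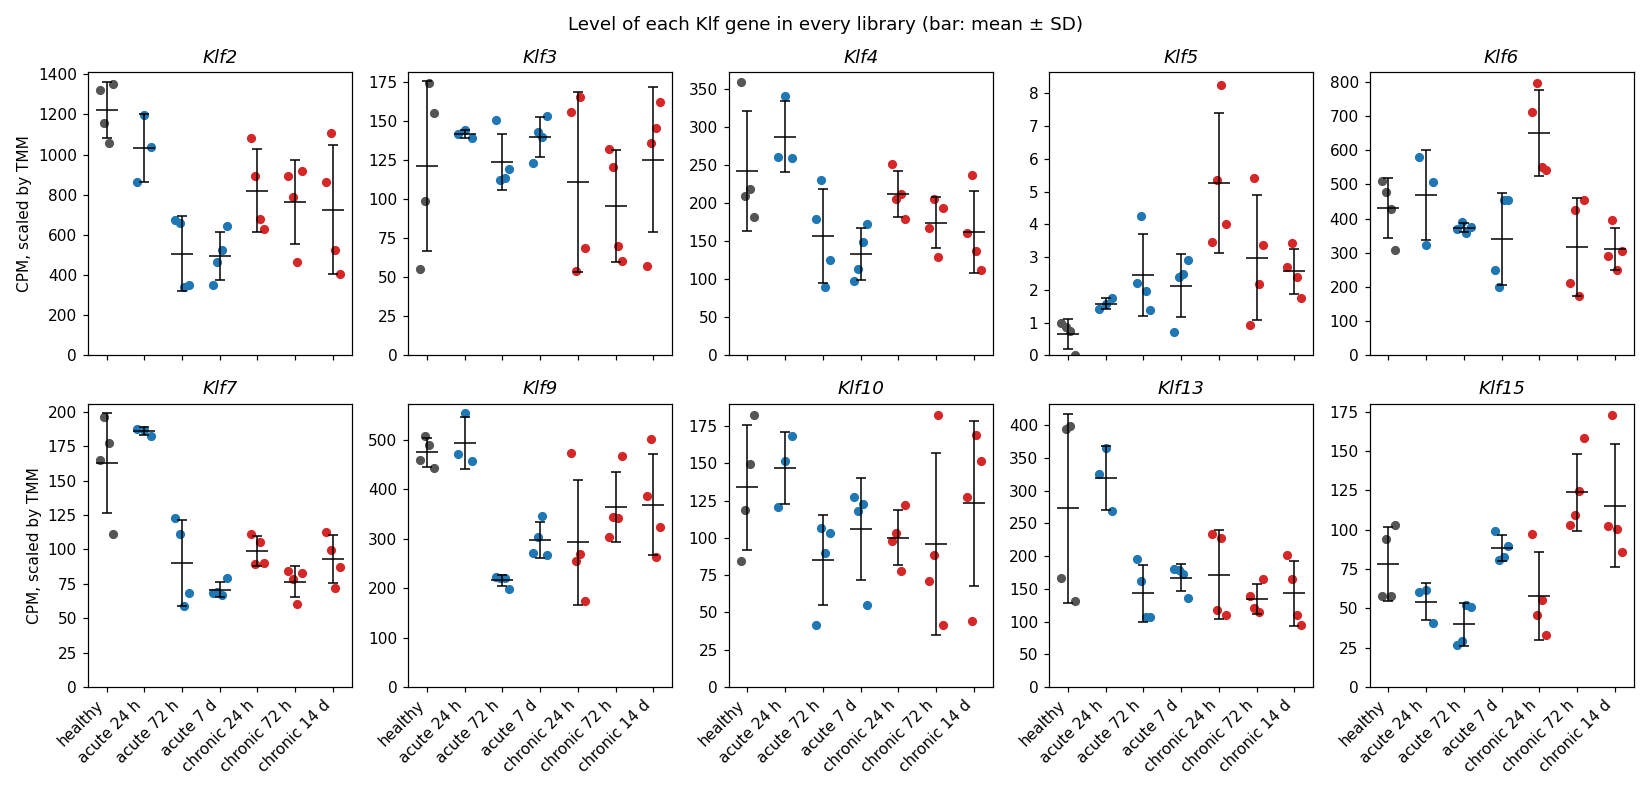
CPM of each Klf gene in every library (points; grey healthy, blue acute, red chronic), with the mean and SD of each group as bars. Klf2, Klf4, Klf7, Klf9 and Klf13 have healthy and acute 24 h means above those of acute 72 h, Klf5 has its lowest mean in healthy cells, and Klf15 has its lowest mean at acute 72 h (27.02 to 51.9 CPM).

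No member passed the test a day after a first injection, and 3 did at each later acute time. At acute 24 h 0 of 10 members were called in edgeR (0 at an unadjusted p below 0.05, 0 in DESeq2), while 22.0% of all genes were (9.41% higher, 12.5% lower). The median log2 fold change of the members was 0.16, and that of all genes was -0.12. At acute 72 h 3 members were called, Klf5 higher and Klf2 and Klf9 lower, against 12.6% of all genes (8.23% higher, 4.33% lower). At acute 7 d 3 members were called, Klf5 higher and Klf2 and Klf7 lower, against 14.9% of all genes (9.23% higher, 5.64% lower). The median of the members was -0.75 at acute 72 h and -0.51 at acute 7 d, where the medians of all genes were 0.00 and 0.01.

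In the chronic course 1 member was called at 24 h, Klf5 higher, against 19.3% of all genes (11.2% higher, 8.11% lower). At chronic 72 h 3 members were called, Klf5 higher and Klf7 and Klf13 lower, against 12.1% of all genes (7.88% higher, 4.20% lower). At chronic 14 d 0 members were called in edgeR (5 at an unadjusted p below 0.05, 1 in DESeq2), against 5.72% of all genes (4.55% higher, 1.17% lower). With library size alone as the scale, 91.2% of the genes called at chronic 14 d were higher, and 79.6% with TMM. The medians of the members were -0.43, -0.46 and -0.42 at 24 h, 72 h and 14 d, and those of all genes lay between -0.03 and 0.00.

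**Figure D3:**
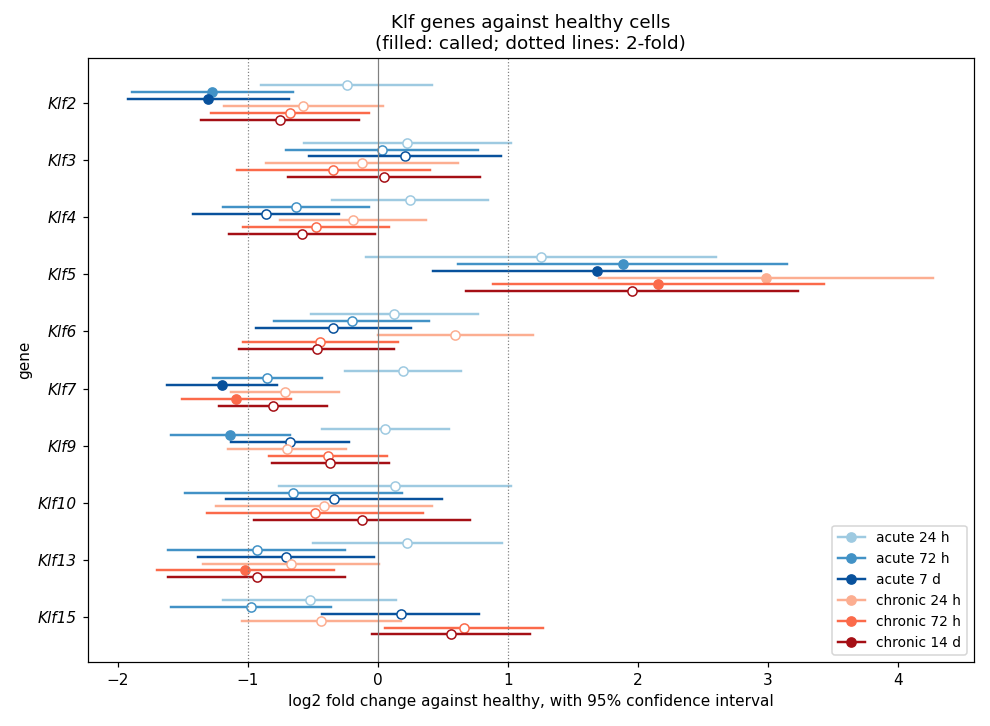
Log2 fold change of each Klf gene in the 6 injured groups against healthy cells, with 95% confidence intervals, filled where called. Klf5 is the only member with filled points on the higher side, with the largest value at chronic 24 h (2.99), and the filled points of Klf2, Klf7, Klf9 and Klf13 lie between -1.30 and -1.02.

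Klf2, a flow-induced factor that keeps endothelium quiescent (ENSMUSG00000055148, chromosome 8, 72319033 to 72321656, plus strand), fell after a single injection. Healthy libraries held 1319, 1159, 1058 and 1351 CPM and acute 24 h libraries 862, 1198 and 1039 CPM. Acute 72 h libraries held 675, 658, 339 and 349 CPM and acute 7 d libraries 351, 463, 522 and 643 CPM. Every acute 72 h and 7 d library lay below every healthy and every acute 24 h library. Against healthy the log2 fold change was -1.27 ± 0.30 at 72 h (edgeR adjusted p = 0.0033) and -1.30 ± 0.30 at 7 d (edgeR adjusted p = 0.0026), and no single library decided either call. Against acute 24 h, Klf2 was lower at 7 d by a log2 fold change of -1.06 ± 0.32 (edgeR adjusted p = 0.0095). That call was lost without acute 24 h replicate 2 (-0.94) or acute 7 d replicate 1 (-0.97), and with library size alone (-0.96).

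In the chronic course Klf2 lay between healthy and late acute levels. Chronic 24 h libraries held 1081, 892, 679 and 631 CPM, chronic 72 h libraries 894, 786, 463 and 916 CPM, and chronic 14 d libraries 865, 1106, 524 and 403 CPM. These groups overlapped each other, and all 4 chronic 72 h libraries were below the healthy ones. The log2 fold changes against healthy were -0.57, -0.68 and -0.75, with edgeR adjusted p = 0.15, 0.11 and 0.12.

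Klf4, the partner of Klf2 in endothelium and a pluripotency factor (ENSMUSG00000003032, chromosome 4, 55527143 to 55532466, minus strand), fell between acute 24 h and 7 d. Healthy libraries held 358, 209, 219 and 181 CPM, acute 24 h libraries 261, 340 and 259 CPM, and acute 7 d libraries 97.6, 114, 149 and 173 CPM. All 4 libraries of acute 7 d were below every library of healthy and acute 24 h cells. The log2 fold change from acute 24 h to 7 d was -1.11 ± 0.29 (edgeR adjusted p = 0.0040), or -0.96 and under 2-fold without acute 24 h replicate 2. Against healthy it was -0.86 ± 0.27 (edgeR adjusted p = 0.024), under 2-fold. Acute 72 h libraries held 179, 230, 89.1 and 126 CPM, and their log2 fold change against healthy was -0.63 ± 0.27 (edgeR adjusted p = 0.099). Chronic libraries ran from 111 to 252 CPM with no call.

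Klf2 and Klf4 were the pair of members with the most alike levels. Over the 27 libraries Pearson's r of their log2 CPM was 0.86, over the 7 group means 0.91, and 0.81 after group means were subtracted. The libraries share depth and group, so these are descriptions. Within acute 72 h, replicates 1 and 2 were the higher libraries for both genes and replicates 3 and 4 the lower ones. The endothelial marker sum followed the same split, with 1003 and 1074 CPM in replicates 1 and 2 and 684 and 695 CPM in replicates 3 and 4. Acute 7 d replicate 4 and chronic 24 h replicate 1 were also highest of their groups for the sum and both genes. Other groups differed. Acute 24 h replicate 2 had the lowest sum (753 CPM) but the highest Klf2 (1198 CPM) and Klf4 (340 CPM). Chronic 72 h replicate 4 had the lowest sum (588 CPM) and the highest Klf2 (916 CPM). Healthy replicate 3 had the highest sum (1480 CPM) and the lowest Klf2 (1058 CPM). Over the groups that sum ran from 880 to 1480 CPM in healthy, from 753 to 1124 CPM in acute 24 h, from 684 to 1074 CPM in acute 72 h and from 699 to 1141 CPM in acute 7 d libraries, with every one of its 12 markers detected in each group. Eng made up most of it, with means of 947 CPM in healthy and 775 CPM in acute 72 h libraries. Kdr, a marker of the same list, was at a mean of 54.5 CPM in healthy, 3.62 CPM in acute 24 h, 7.18 CPM in acute 72 h and 53.7 CPM in acute 7 d libraries. In the same order Clec4g was at 63.8, 11.3, 16.4 and 52.2 CPM, and Lyve1 at 7.93, 23.7, 7.43 and 21.8 CPM. Markers of the list thus differed in direction at acute 24 h. The part of endothelial RNA in the levels of Klf2 and Klf4 was not tested.

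Klf5, a factor of proliferating epithelium and remodelling vessel walls (ENSMUSG00000005148, chromosome 14, 99298691 to 99315036, plus strand), rose from a very low level. Healthy libraries held 11, 9, 9 and 0 counts, or 0.997, 0.878, 0.758 and 0 CPM. The count of 0 in healthy replicate 4 allows a level of up to 0.26 CPM (3 counts, counting error only). Chronic 24 h libraries held 23, 39, 94 and 50 counts, or 3.45, 5.35, 8.24 and 4.00 CPM. All 4 chronic 24 h libraries were above every healthy library and every acute 24 h library, which held 1.42, 1.56 and 1.76 CPM.

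The log2 fold change of Klf5 at chronic 24 h against healthy was 2.99 ± 0.62 (edgeR adjusted p = 0.00073). This call was kept in every alternative and with each library left out, and was 3.21 in the deeper libraries alone. Acute 72 h libraries held 2.21, 4.24, 1.95 and 1.39 CPM, and the log2 fold change was 1.88 ± 0.61 (edgeR adjusted p = 0.029). It was not called without healthy replicate 3 (1.96, edgeR adjusted p = 0.055) or acute 72 h replicate 2 (1.48, edgeR adjusted p = 0.11), in a fit of only the groups compared (edgeR adjusted p = 0.14) or with no filter (edgeR adjusted p = 0.051). Both groups stood apart, with the lowest acute 72 h library at 1.39 CPM.

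At acute 7 d Klf5 was at 0.728, 2.38, 2.50 and 2.91 CPM and at chronic 72 h at 0.933, 5.43, 2.18 and 3.37 CPM. In each of these groups 1 library lay within the healthy range. The log2 fold changes were 1.68 ± 0.61 (edgeR adjusted p = 0.048) and 2.16 ± 0.62 (edgeR adjusted p = 0.015). The acute 7 d call was lost without any of healthy replicates 2, 3 and 4 or acute 7 d replicates 2, 3 and 4 (1.27 to 1.85). The chronic 72 h call was lost without chronic 72 h replicate 2 (1.74), in the deeper libraries alone (2.10, edgeR adjusted p = 0.068) and in a fit of only the groups compared (edgeR adjusted p = 0.12). The acute 7 d call was also lost in both (edgeR adjusted p = 0.069 and 0.18), with the depth term (0.051) and with no filter (0.075). At chronic 14 d, with 2.70, 3.42, 2.41 and 1.76 CPM, the value of 1.96 ± 0.62 missed the threshold (edgeR adjusted p = 0.0501). At the same time after injury, chronic 24 h exceeded acute 24 h by 1.73 ± 0.64 (edgeR adjusted p = 0.056).

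The macrophage marker sum was 161 to 669 CPM in healthy, 567 to 3724 CPM in chronic 24 h and 4231 to 10814 CPM in acute 7 d libraries, and none of its 12 markers was at 0 in any group. Chronic 24 h replicate 3 had the lowest sum of its group (567 CPM) and the highest Klf5 level (8.24 CPM). Healthy replicate 4 had the highest sum (669 CPM) and 0 CPM of Klf5. Other groups went the other way. Replicate 2 was highest for both in chronic 72 h (2906 and 5.43 CPM) and chronic 14 d (2121 and 3.42 CPM). In acute 7 d, replicate 1 was lowest for both (4231 and 0.728 CPM). The marker sum of cholangiocytes and mesothelial cells was 17.4 to 65.7 CPM in healthy and 110 to 216 CPM in chronic 24 h libraries, of which replicate 3 was again the lowest. Whether either source adds to Klf5 was not tested.

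Klf6, a gene induced early in HSC activation (ENSMUSG00000000078, chromosome 13, 5861482 to 5870394, plus strand), was highest at chronic 24 h and fell during recovery. Chronic 24 h libraries held 711, 798, 551 and 541 CPM and chronic 14 d libraries 291, 395, 251 and 304 CPM. The groups did not overlap, and the log2 fold change from chronic 24 h to 14 d was -1.07 ± 0.29 (edgeR adjusted p = 0.010). In the shallower libraries alone it was -1.23 (edgeR adjusted p = 0.031), and with library size alone it was -0.91. Leaving out replicate 2 of chronic 24 h (-0.96) or replicate 3 of chronic 14 d (-0.93) brought it under 2-fold.

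Klf6 was not called against healthy cells at any time. Healthy libraries held 509, 477, 428 and 308 CPM and acute 24 h libraries 579, 324 and 507 CPM, which overlapped. The acute 24 h difference was 0.13, with a 95% confidence interval of -0.52 to 0.77 (edgeR adjusted p = 0.80). At chronic 24 h every library was above every healthy one, and the difference was 0.60, with an interval of -0.00 to 1.19 (edgeR adjusted p = 0.12). The shallower replicates 1 and 2 were the higher ones of that group. In the deeper libraries alone the difference was 0.36 (edgeR adjusted p = 0.50). Acute 72 h libraries were close together at 359 to 389 CPM, whereas acute 7 d libraries split into 249 and 199 CPM and 454 and 454 CPM.

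Klf7, a factor known from axon growth and adipocyte differentiation (ENSMUSG00000025959, chromosome 1, 64029447 to 64122282, minus strand), had a mean below that of healthy cells in every group but acute 24 h. Healthy libraries held 165, 196, 178 and 111 CPM and acute 24 h libraries 188, 187 and 183 CPM. Acute 7 d libraries held 68.6, 68.9, 66.7 and 79.0 CPM. Chronic 72 h libraries held 84.5, 78.3, 60.0 and 83.2 CPM. Both late groups lay wholly below healthy and acute 24 h libraries.

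The log2 fold change of Klf7 against healthy was -1.20 ± 0.20 at acute 7 d (edgeR adjusted p = 0.00015) and -1.09 ± 0.20 at chronic 72 h (edgeR adjusted p = 0.00046). The former kept its call without any single library. The latter was under 2-fold without healthy replicate 2 (-0.99) or chronic 72 h replicate 3 (-0.95) and with library size alone (-0.97), and -1.15 in the deeper libraries alone. From acute 24 h to 7 d Klf7 fell by a log2 fold change of -1.39 ± 0.22 (edgeR adjusted p = 2.3e-05), the smallest adjusted p of any member in a comparison, and no left-out library ended that call. Differences that passed the p threshold and stayed under 2-fold were -0.85 at acute 72 h, -0.71 at chronic 24 h and -0.81 at chronic 14 d against healthy, and -0.91 for chronic 24 h against acute 24 h.

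Klf3, a CtBP-binding repressor known from erythroid and adipose cells (ENSMUSG00000029178, chromosome 5, 64803388 to 64832901, plus strand), varied as much within the healthy and chronic groups as between groups. Healthy libraries held 55.5, 99.0, 175 and 156 CPM, and chronic 24 h libraries held 156, 54.4, 166 and 68.9 CPM. Acute libraries lay closer together, at 139 to 144 CPM at 24 h, 112 to 151 CPM at 72 h and 123 to 153 CPM at 7 d. Group means ran from 95.7 to 142 CPM, and the largest difference from healthy was -0.34 at chronic 72 h (interval -1.08 to 0.40). Klf10, an early target of transforming growth factor beta (ENSMUSG00000037465, chromosome 15, 38291463 to 38300706, minus strand), had group means of 85.3 to 147 CPM. Its largest difference from healthy was -0.65 at acute 72 h, with an interval of -1.48 to 0.18 (edgeR adjusted p = 0.27). Against healthy, the intervals of Klf3 reached 2-fold at acute 24 h (-0.57 to 1.02) and chronic 72 h and stayed under it at the other times. Those of Klf10 reached 2-fold at every time but chronic 14 d (-0.95 to 0.71). Where an interval reached 2-fold, a change of that size was not excluded.

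Klf13, a Sin3-binding factor that drives the chemokine CCL5 in T cells (ENSMUSG00000052040, chromosome 7, 63886351 to 63938915, minus strand), had a split healthy group. Healthy replicates 2 and 3 held 395 and 399 CPM and replicates 1 and 4 held 167 and 131 CPM. Chronic 72 h libraries held 139, 120, 114 and 165 CPM, so that all 4 were below healthy replicate 1, 2 were above healthy replicate 4, and the groups overlapped. The call at chronic 72 h (-1.02 ± 0.33, edgeR adjusted p = 0.031) was lost without healthy replicate 2 (-0.79), healthy replicate 3 (-0.78) or chronic 72 h replicates 1 to 3 (-1.04 to -0.91), and in the deeper libraries alone (-0.93, edgeR adjusted p = 0.17). Library size alone (-0.90), the replicate block (-0.93) and no filter (edgeR adjusted p = 0.062) also ended the call. So did the depth term (edgeR adjusted p = 0.065) and a fit of only the groups compared (edgeR adjusted p = 0.10). Acute 24 h libraries were high, at 325, 364 and 268 CPM, and acute 7 d libraries lay below all of them at 137 to 180 CPM. That difference was -0.93 ± 0.35 (edgeR adjusted p = 0.037), under 2-fold.

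Klf9, a Sin3-binding factor that responds to thyroid hormone and glucocorticoids (ENSMUSG00000033863, chromosome 19, 23141226 to 23168134, plus strand), was lower than in healthy cells at 72 h after a first injection, and its step from 24 h to 72 h differed between the courses. Healthy libraries held 459, 508, 489 and 443 CPM and acute 24 h libraries 470, 554 and 457 CPM. Acute 72 h libraries held 223, 220, 221 and 199 CPM. The 4 acute 72 h libraries lay far below all the earlier ones, and the log2 fold change against healthy was -1.14 ± 0.22 (edgeR adjusted p = 0.00065), with no left-out library that ended the call. At acute 7 d, with 270, 304, 346 and 268 CPM, Klf9 was still below every healthy library, by -0.68 ± 0.22 (edgeR adjusted p = 0.028).

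Chronic 24 h libraries of Klf9 held 472, 256, 268 and 174 CPM. Replicate 1 lay within the healthy range and the other 3 below it, and the difference from healthy was -0.70 ± 0.22 (edgeR adjusted p = 0.018), or -1.03 without replicate 1 and -1.09 in the deeper libraries alone, where it was called. Chronic 72 h libraries held 304, 343, 342 and 467 CPM and chronic 14 d libraries 386, 502, 262 and 324 CPM. Neither group was called against healthy (-0.38 and -0.37, edgeR adjusted p = 0.23 and 0.33).

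Klf15, a glucocorticoid-induced factor of gluconeogenesis and amino acid breakdown (ENSMUSG00000030087, chromosome 6, 90462576 to 90475238, plus strand), had its lowest group mean at acute 72 h and its highest at chronic 72 h. Healthy libraries held 58.0, 94.0, 57.8 and 103 CPM, acute 24 h libraries 60.5, 62.0 and 40.5 CPM, and acute 72 h libraries 27.02, 29.4, 51.9 and 50.8 CPM. Every acute 72 h library was below every healthy one, and the difference of -0.97 ± 0.30 (edgeR adjusted p = 0.020) was just under 2-fold. At acute 7 d the level was back at 99.2, 80.9, 82.8 and 89.8 CPM, within the healthy range.

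In the chronic course Klf15 was at 97.6, 45.7, 55.3 and 33.0 CPM at 24 h, at 103, 110, 125 and 158 CPM at 72 h and at 103, 173, 100 and 85.8 CPM at 14 d. All chronic 72 h libraries were above all chronic 24 h ones. The difference of 14 d from 24 h was 1.00 ± 0.30 (edgeR adjusted p = 0.017), a 1.996-fold level and so not called. It was called at 1.37 without chronic 24 h replicate 1, the library that was also highest for Klf9 and Klf2 in its group, and 0.74 in the shallower libraries alone (edgeR adjusted p = 0.21).

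The step from 24 h to 72 h was tested for a difference between courses, and 2 of 10 members were called, Klf9 and Klf15, both with a higher step in the chronic course. Of all genes 8.74% were called (2.28% higher, 6.46% lower). The ratio of the mean CPM of Klf9 at 72 h to that at 24 h was 0.437 in the acute and 1.24 in the chronic course. The difference between the steps was 1.51 ± 0.32 on the log2 scale (edgeR adjusted p = 0.0033). It kept its call with each of the 15 libraries left out (1.37 to 1.84) and was 2.14 in the deeper libraries alone (edgeR adjusted p = 0.00031).

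For Klf15 the corresponding ratios were 0.732 and 2.14. The difference between the steps was 1.55 ± 0.43 (edgeR adjusted p = 0.022), and 2.21 in the deeper libraries alone (edgeR adjusted p = 0.010). It was not called without acute 24 h replicate 1 (1.46, edgeR adjusted p = 0.056) or replicate 2 (1.44, edgeR adjusted p = 0.066). The other 8 members were not called. Klf2 had a difference of 0.93 (interval 0.04 to 1.82, edgeR adjusted p = 0.18), and Klf5 and Klf6 had negative ones of -1.45 (interval -3.20 to 0.29) and -0.71 (interval -1.59 to 0.17).

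**Figure D4:**
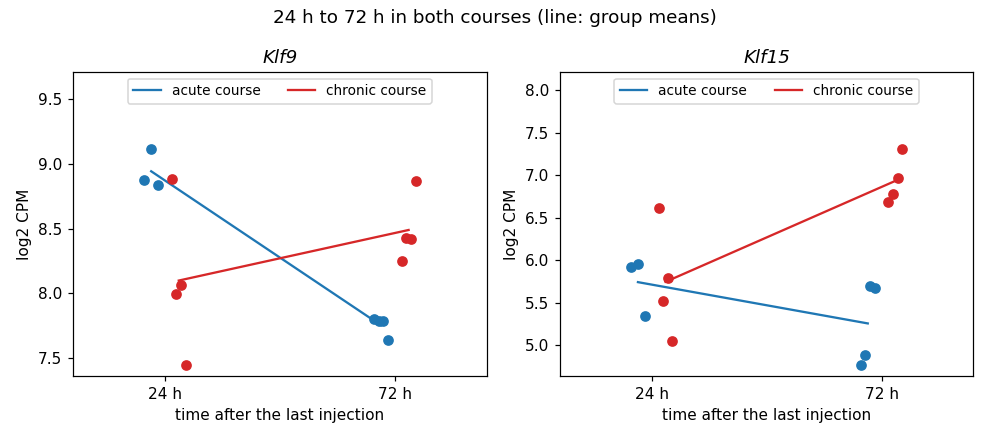
Log2 CPM of Klf9 (left) and Klf15 (right) at 24 h and 72 h after the last injection in the acute (blue) and chronic (red) course, with a point per library and lines between group means. The acute lines go down (Klf9 ratio 0.437, Klf15 ratio 0.732) and the chronic lines go up (1.24 and 2.14), and chronic 24 h replicate 1 is the highest red point at 24 h in both panels.

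Further comparisons bear on the time course. Chronic 24 h against acute 24 h gave 0 called members in edgeR (4 at an unadjusted p below 0.05, 1 in DESeq2), where 13.9% of all genes were called (10.9% higher, 3.05% lower). Acute 7 d against acute 24 h gave 3 members, Klf2, Klf4 and Klf7, all lower, where 27% of all genes were called (17.8% higher, 9.24% lower). Chronic 14 d against chronic 24 h gave 1 member, Klf6, lower, where 12.8% of all genes were called (6.65% higher, 6.11% lower). In that comparison 52.1% of the genes called were higher with TMM and 67.2% with library size alone.

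Chronic 72 h against acute 7 d, with the fewest called genes of the 11 comparisons, gave 0 called members in edgeR (1 at an unadjusted p below 0.05, Klf2, and 0 in DESeq2). Of all genes 0.432% were called (0.165% higher, 0.267% lower). The differences of the members ran from -0.55 for Klf3 to 0.63 for Klf2, with intervals of -1.29 to 0.19 and 0.02 to 1.24. For Klf7 the interval was -0.30 to 0.53 and for Klf9 -0.16 to 0.75, so that changes above 2-fold lie outside both.

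Besides Klf2 with Klf4, pairs of members with r above 0.75 over the 27 libraries were Klf7 with Klf13 (0.80), Klf4 with Klf7 (0.79) and Klf2 with Klf7 (0.76). Klf9 and Klf15 had an r of 0.49, and 0.64 after group means were subtracted. The lowest r was -0.38 for Klf5 with Klf10. All libraries share their group and depth class in these values, and no test was made.

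Among 10293 genes whose log2 CPM averaged 3 or more, those with levels most like a member's were ranked by Pearson's r over the 27 libraries. The second gene after Klf4 was Ecsit for Klf2 (0.85), and after Klf2 it was Foxs1, a forkhead factor of mural cells, for Klf4 (0.86). Klf5 was most like Tnfaip3, the NF-kappaB feedback inhibitor A20 (0.82), and Myo1d (0.80). Klf6 was most like Bag3, a co-chaperone (0.74), and Ccn1, a target of YAP (0.74). Klf7 had the closest matches, Rbms1 (0.94) and Purb (0.91), both nucleic acid-binding proteins. For Klf9 they were Psen2 (0.86) and Sult1a1 (0.82). For Klf15 they were Gadd45a (0.87) and Stard5 (0.85), for Klf13 Sorbs3 (0.84) and Stk24 (0.80), for Klf10 Ddx42 (0.75) and Pdgfra (0.65), and for Klf3 Gm18588 (0.65) and Gm15635 (0.58).

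Of the 7 further Klf genes, 4 passed the filter on low counts, and Klf1, Klf14 and Klf17 did not. Klf12, a CtBP-binding repressor, was lower at acute 24 h (-1.82 ± 0.30, edgeR adjusted p = 6.2e-05) and higher at acute 7 d than at acute 24 h (1.31 ± 0.30, edgeR adjusted p = 0.0012). Klf8, Klf11 and Klf16 were called in none of the 11 comparisons. Of the 9 Sp genes 4 passed the filter. Sp4 was lower at acute 24 h (-1.26) and chronic 24 h (-1.08) and higher at chronic 14 d than at chronic 24 h (1.13), and Sp1, Sp2 and Sp3 were not called. Of 13 co-regulators, among them Ctbp1, Sin3a and Ep300, 1 was called in 1 comparison, Hdac1 at -1.003 for chronic 24 h against acute 24 h (edgeR adjusted p = 0.0010).

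Of the 8 genes of the ERK5 and MEF2 pathway, which induces Klf2 and Klf4 in endothelium, Mef2c was higher in all 3 chronic groups against healthy (1.84, 1.04 and 1.14) and in none of the acute ones (-0.55, 0.75 and 0.82). Mapk7, the gene of ERK5, was not called in any comparison. From acute 24 h to 7 d, where Klf2 and Klf4 fell, Mef2c rose (1.37) and Mef2d fell (-1.31), and the median of the 8 genes was -0.06, beside 0.02 for all genes. Of the 8 endothelial targets of Klf2 and Klf4 that were listed, which include Klf4, 2 were called at acute 72 h (8.23% of all genes higher, 4.33% lower), Edn1 higher (3.16) and Kdr lower (-2.93). At acute 7 d (9.23% higher, 5.64% lower) Edn1 was higher (2.81) and Plvap lower (-1.39). Edn1 was also higher at chronic 24 h (4.68), 72 h (3.24) and 14 d (2.01), and Kdr lower at acute 24 h (-3.91) and chronic 24 h (-1.58). Il6 was called higher and Plvap lower at chronic 24 h and 72 h, and Cdkn1a higher at acute 24 h. Of all genes 9.41% were higher and 12.5% lower at acute 24 h, and 11.2% and 8.11% at chronic 24 h. At chronic 72 h these shares were 7.88% and 4.20%, and at chronic 14 d 4.55% and 1.17%. The part of Klf2 and Klf4 in the levels of these genes was not tested.

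Klf9 and Klf15 are known to respond to glucocorticoids and the clock, and genes of both lists were counted in the same comparisons. The change from acute 24 h to 72 h was not itself tested. Of 9 glucocorticoid receptor targets, 5 were higher and 1 was lower at acute 24 h (9.41% and 12.5% of all genes), and the median log2 fold change was 1.32. At acute 72 h none passed the thresholds as higher and 1 was lower (8.23% and 4.33% of all genes), with a median of 0.09. Fkbp5, an inducible target, was at 2.63 at acute 24 h, 1.56 at chronic 24 h and -0.13 at chronic 72 h against healthy. Nr3c1, the receptor gene, was lower at acute 24 h (-1.78) and chronic 24 h (-1.62). In the test of the step between courses, 1 of the 9 was called, Mt1 at 3.24 (edgeR adjusted p = 0.00013), where 8.74% of all genes were.

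Of 15 clock genes 3 were higher and 5 lower at acute 24 h (9.41% and 12.5% of all genes), with a median of -0.16. At acute 72 h 5 were higher and 2 lower (8.23% and 4.33% of all genes), with a median of 0.60. Dbp, a clock output factor, was at -3.95 at acute 24 h and -0.37 at chronic 24 h, and it was the 1 clock gene of 15 whose step was called as different between courses, by -4.13 (edgeR adjusted p = 0.022), opposite in sign to those of Klf9 and Klf15. At chronic 14 d 2 clock genes were higher, Dbp (2.47) and Hlf (1.87). The hour of collection was not given in the sources used here, and the part of clock phase or stress hormones in the levels of Klf9 and Klf15 was not tested.

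Of 9 early targets of transforming growth factor beta, a list relevant to Klf10, no gene passed both thresholds of the edgeR test at acute 24 h. Of all genes 9.41% were higher and 12.5% lower there. At acute 72 h 2 were higher, Smad6 and Ltbp2, and 0 lower (8.23% and 4.33% of all genes). Of 19 immediate early genes, a class to which Klf2, Klf4, Klf6 and Klf10 are often added and which respond to tissue dissociation, 4 were higher and 0 lower at acute 24 h (9.41% and 12.5% of all genes), and 1 was higher and 4 lower at acute 7 d (9.23% and 5.64% of all genes). From acute 24 h to 7 d, where Klf2 and Klf4 fell, 0 of the 19 were higher and 7 lower (17.8% and 9.24% of all genes), Fosb, Ier3, Dusp1, Fosl1, Fosl2, Ier2 and Maff. Fos itself was at -0.62 at acute 7 d against healthy (edgeR adjusted p = 0.0078), under 2-fold, and was the gene most like Klf2 by Spearman's rho (0.85). The part of dissociation in these levels was not tested.

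**Figure D5:**
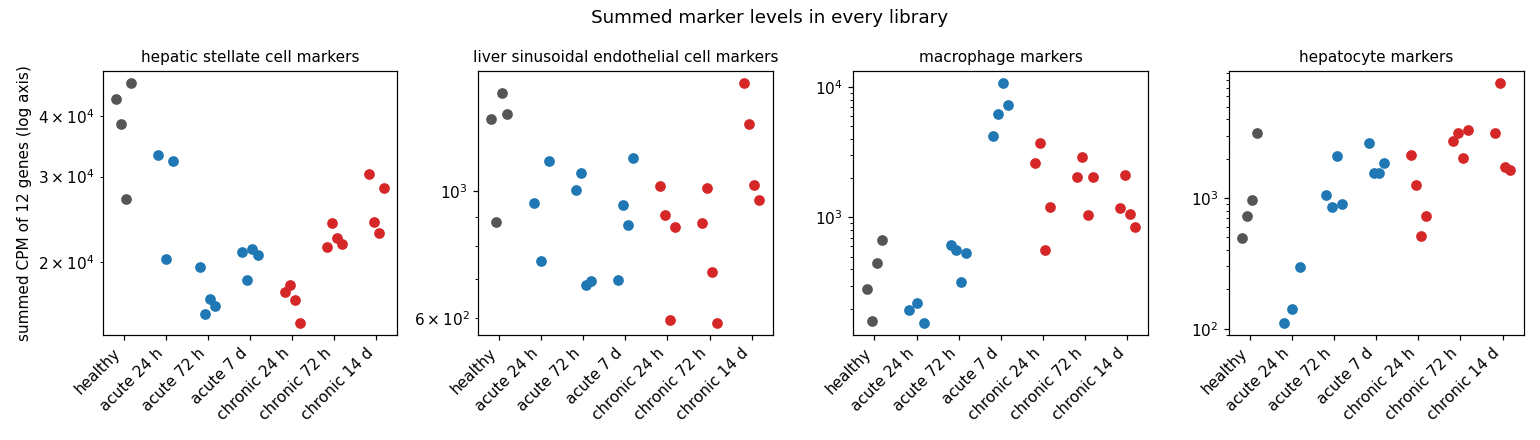
Summed CPM of 12 marker genes of HSCs, liver sinusoidal endothelial cells, macrophages and hepatocytes in every library, on log axes, by group. The HSC sum reaches its highest values in healthy libraries (26911 to 46784 CPM), the macrophage sum peaks at acute 7 d (4231 to 10814 CPM), and the hepatocyte sum is lowest at acute 24 h (111 to 296 CPM).

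Hepatocyte markers summed to 499 to 3175 CPM in healthy, 111 to 296 CPM in acute 24 h and 1638 to 7632 CPM in chronic 14 d libraries, with Fabp1 at 0 in acute 24 h and no other marker of the list at 0. Klf9 and Klf15 are also expressed in hepatocytes. In chronic 24 h, replicate 1 had both the highest hepatocyte sum (2152 CPM) and the highest levels of Klf9 and Klf15, and in chronic 14 d, replicate 2 had the highest sum (7632 CPM) and the highest levels of both genes. The same held for both genes in chronic 72 h replicate 4 (sum 3295, Klf9 467 and Klf15 158 CPM). For Klf15 alone it held in healthy replicate 4 (3175 and 103 CPM) and acute 72 h replicate 3 (2101 and 51.9 CPM). So it did in acute 7 d replicate 1 (2635 and 99.2 CPM). In acute 24 h, replicate 3 had the highest sum (296 CPM) but the lowest Klf9 and Klf15 levels (457 and 40.5 CPM). The sum was lowest of all groups there, while Klf9 was at its highest group mean (494 CPM). Klf15 was at a mean of 54.3 CPM there and 78.2 CPM in healthy cells. The part of hepatocyte RNA in the levels of Klf9 and Klf15 was not tested. Lymphocyte and neutrophil markers summed to 1.91 to 9.25 CPM in healthy libraries and to at most 85.2 CPM in any library, which was one of chronic 14 d.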

How the data were processed

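RNA of sorted HSCs from 27 libraries in 7 groups was sequenced in bulk. Per the study's methods, reads were checked by the authors in FastQC, trimmed, aligned to GRCm38.p6 with STAR and assembled genes with StringTie. The deposited table holds raw counts per gene, and how these were made from the assembly, the annotation release and the use of strand are not given in the sources used here. The authors tested differences with DESeq2.

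Counts were filtered with filterByExpr, scaled by TMM and fitted with the quasi-likelihood test of edgeR 4.0.16 (limma 3.58.1, R 4.3.3) over all 27 libraries with 1 term per group. Calls needed an adjusted p below 0.05 (Benjamini-Hochberg) and a change above 2-fold. The step from 24 h to 72 h was tested as an interaction. Log2 CPM used a prior count of 2. The fit was tested on simulated data. Gene positions were those of GENCODE M21, in which 53274 of 53379 identifiers were found, and promoters those of RefSeq. Python 3.11.15, pandas 2.3.3 and matplotlib 3.10.9 made tables and plots.

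Totals of 6.31 M to 13.1 M counts per library limit precision for low genes such as Klf5. Intervals and floors cover counting error or the spread between libraries only. Members, gene lists and tests were chosen with earlier results of these data known. Named genes were the members, the 2 genes most alike each member in Pearson's r among genes whose log2 CPM averaged 3 or more, and genes of the lists. Fos was named after its values were seen by Spearman's rho. Some results of the list of transforming growth factor beta targets are not reported here. Alternatives were other thresholds, scalings and filters, a replicate block, a depth term, fits of only the groups compared, each depth class alone, DESeq2 1.42.0 and leaving out each library.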

Additional observations from a re-analysis of the deposited data

Results flagged for a closer look

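In 60 combinations of a member and a group of 4, 6 held a library whose gap to the others exceeded the limit of Dixon's test, where chance flags about 1 in 20. Klf3 in chronic 14 d replicate 1 was at 57.4 CPM, and the other libraries of that group were at 136, 146 and 162 CPM. Klf5 in healthy replicate 4 was at 0 CPM, beside 0.997, 0.878 and 0.758 CPM, and in acute 7 d replicate 1 it was at 0.728 CPM, beside 2.38, 2.50 and 2.91 CPM. Klf9 in acute 72 h replicate 4 was at 199 CPM, beside 223, 220 and 221 CPM, a narrow group in which the gap is small. Acute 7 d replicate 4 was the low library for both Klf10 (55.0 CPM, beside 128, 118 and 123 CPM) and Klf13 (137 CPM, beside 180, 179 and 173 CPM).

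The step from 24 h to 72 h differed between the chronic and the acute course for Klf9, by 1.51 on the log2 scale (edgeR adjusted p = 0.0033), and for Klf15, by 1.55 (edgeR adjusted p = 0.022). Both were tested as an interaction.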

How the results depend on the processing

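No called value changed sign. Values of members that were not called did in some alternatives, among them Klf3 (-0.35) and Klf10 (0.12) at chronic 14 d and Klf3 from chronic 24 h to 14 d (-0.05) with the depth term, and Klf15 for chronic 24 h against acute 24 h (-0.34) and Klf10 for chronic 72 h against acute 7 d (0.08) in the deeper libraries alone. Klf5 at chronic 24 h kept its call under every alternative. Of the alternatives for single values and counts, 56 lost a call, 52 gained one and 105 counts or values moved. The other 2315 were labelled as the same. For fold changes of members this means an unchanged status as called or not. For counts of called genes, group orders, levels per kb and likeness it means staying within a set margin. With no fold minimum the members called were 6 at acute 72 h, 5 at acute 7 d, 3 at chronic 24 h and 1 at chronic 14 d against healthy, 2 for chronic 24 h against acute 24 h, 5 for acute 7 d against acute 24 h and 2 for chronic 14 d against chronic 24 h. The test against a 2-fold minimum left 0 members at acute 72 h, acute 7 d and chronic 72 h, 0 for acute 7 d against acute 24 h, 0 for chronic 14 d against chronic 24 h and 0 for the step. At chronic 72 h 1 member was called with library size alone, with only the groups compared and with the deeper libraries alone. At chronic 14 d 1 member was called at an adjusted p below 0.1, with the size factors of DESeq2, with library size alone, with a filter at a mean of 1 CPM and in DESeq2. Chronic 24 h against acute 24 h gave 1 member at an adjusted p below 0.1, with only the groups compared, with the deeper libraries alone and in DESeq2. Chronic 24 h against healthy gave 2 in the deeper libraries alone. Chronic 14 d against chronic 24 h gave 2 with the size factors of DESeq2, with no filter, with the filter at 1 CPM and in DESeq2, and 0 with only the groups compared. The causes were not tested.

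With each library left out, the members called ran from 2 to 5 at acute 72 h, 2 to 3 at acute 7 d, 1 to 2 at chronic 24 h, 1 to 3 at chronic 72 h and 0 to 1 at chronic 14 d. They ran from 0 to 2 for chronic 24 h against acute 24 h, 1 to 4 for acute 7 d against acute 24 h, 0 to 2 for chronic 14 d against chronic 24 h, 1 to 2 for the step and 7 to 8 for any difference. The replicate block gave 1 member at chronic 14 d, 1 for chronic 24 h against acute 24 h and 2 at chronic 72 h. Same-numbered libraries had correlations of deviations of -0.172 to 0.149, of which 7 of 37 exceeded 0.1, so the numbers were not taken to pair libraries.

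Over all genes, no fold minimum gave 6319 calls at acute 24 h, 4104 at acute 72 h, 4446 at acute 7 d, 5818 at chronic 24 h, 3748 at chronic 72 h and 1615 at chronic 14 d, 4000 for chronic 24 h against acute 24 h and 4323 for chronic 14 d against chronic 24 h. The test against a 2-fold minimum gave 1560, 642, 963, 1434, 693 and 263 calls in the same order against healthy, 1055 for chronic 24 h against acute 24 h, 2601 for acute 7 d against acute 24 h, 477 for chronic 14 d against chronic 24 h, 4 for chronic 72 h against acute 7 d and 366 for the step. Chronic 14 d had 622 with only the groups compared, chronic 14 d against chronic 24 h 1449 in the shallower libraries alone, and the step 1089 in the deeper ones. Chronic 72 h against acute 7 d had 146 at an adjusted p below 0.1, 206 with the depth term, 42 with only the groups compared, 46 in the deeper libraries and 260 in DESeq2. The median over all genes moved by up to 0.17 (log2) with library size alone. Klf5, with 0 to 94 counts, is the member most limited by depth.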
